A study of Mus musculus with 45 samples.

Results

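The transcriptomes of male E14tg2a embryonic stem cells (ESCs) that had been kept in 2iL were compared with those of the same line kept in SL, after 1 day of differentiation. The libraries were chosen by their titles alone, as every library of day 1. They are 6 of the 45 libraries of the series, 3 from 2iL and 3 from SL. All came from the wild-type line E14tg2a, of the 129/Ola background. 2iL is serum-free N2B27 medium with LIF, the GSK3 inhibitor CHIR99021 and the MEK inhibitor PD0325901, and SL is serum with LIF. The paper describes the line as derived in SL, and by its methods the cells had at most 3 passages in 2iL before differentiation. On the day before, the cells of each medium entered 3 time courses. In the EB course they formed embryoid bodies in suspension in serum without LIF, in the EpiSC course they were attached in N2B27 with Fgf2 and ActivinA, and in the Neural course they were attached in N2B27 alone. So at day 1 the libraries of a course shared their differentiation medium and differed in the medium of origin, and none of the 6 cultures still received LIF or the inhibitors according to the methods. Each origin and course has 1 library, hence the 3 courses stand in for replicates, and p-values measure the spread of the origin difference over courses of a single cell line.

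As background, 2iL blocks MEK and ERK signalling and stabilises beta-catenin, and holds ESCs in a uniform naive state with low DNA methylation. Cultures in serum and LIF are mixed, with cells that move between naive and primed states, a few that express genes of primitive endoderm, and rare cells that turn on genes of the cleavage-stage embryo. When the self-renewal factors are withdrawn, naive factors such as Nanog and Rex1 fall within about a day, and the genes of the formative epiblast rise.

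The 6 libraries held 15174423 to 33120740 reads on genes. The EB library from 2iL was the deepest and the EpiSC library from 2iL the shallowest. Levels are given in CPM, the usual depth-scaled unit of read counts, with TMM-scaled library totals, always in the order EB, EpiSC and Neural, and they are not corrected for gene length, so they compare libraries and not genes. Differences are log2 fold changes of 2iL against SL with their standard error (SE), from edgeR's quasi-likelihood test with the course as block. A gene was called at a Benjamini-Hochberg adjusted p under 0.05 over all 14065 genes tested, which left 2 residual degrees of freedom per gene before edgeR shared the spread between genes. As a check of the labels, none of the 7 pluripotency markers was under 1 CPM throughout, and their summed level was 2812, 2867 and 2911 CPM from 2iL and 2422, 2677 and 2485 CPM from SL. Of 9 fibroblast or feeder markers, 6 were under 1 CPM in all 6 libraries, with sums of 8.13, 3.68 and 3.44 CPM from 2iL and 9.48, 7.62 and 5.91 CPM from SL.

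The medium of origin was widely visible at day 1. Of the 14065 genes tested, 4298 (30.6%) were called, 2148 higher from 2iL (15.3%) and 2150 lower (15.3%). The falls were larger than the rises. Among the called genes 403 were lower by more than 2 on the log2 scale and 152 were higher by as much, and the median was -0.833 for the lower genes against 0.549 for the higher ones. For 4297 of the 4298 called genes the sign was the same in all 3 courses. The differences of single courses correlated across the genes tested with r = 0.797 for EB and EpiSC, 0.808 for EB and Neural and 0.867 for EpiSC and Neural, as a description over genes that share libraries. Without the course as block 2235 genes (15.9%) were called, 1015 higher and 1220 lower, of which 2184 were also called in the same direction with it. Without the EpiSC course 2671 genes were called and without the Neural course 2502, and with the spread taken over all libraries from day 1 on, 2307 were called. The shares of 30.6% and 15.3% are the background against which the gene lists below are read, since the lists were not tested as sets.

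Genes of primitive and extraembryonic endoderm, the lineage that forms the yolk sac, were lower from 2iL almost throughout. The list holds 32 genes, 28 of which passed the filter on low counts. Of these, 24 were lower from 2iL, none was higher, and Lrp2, Lamc1, Nid1 and Fst were not called, with a median log2 fold change of -3.49 against 0.00 over all genes tested. The summed level of the list was 1416, 1195 and 1095 CPM from 2iL and 6046, 3591 and 3517 CPM from SL. In bulk RNA, fewer cells of a type and less RNA per cell cannot be told apart.

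**Figure D1:**
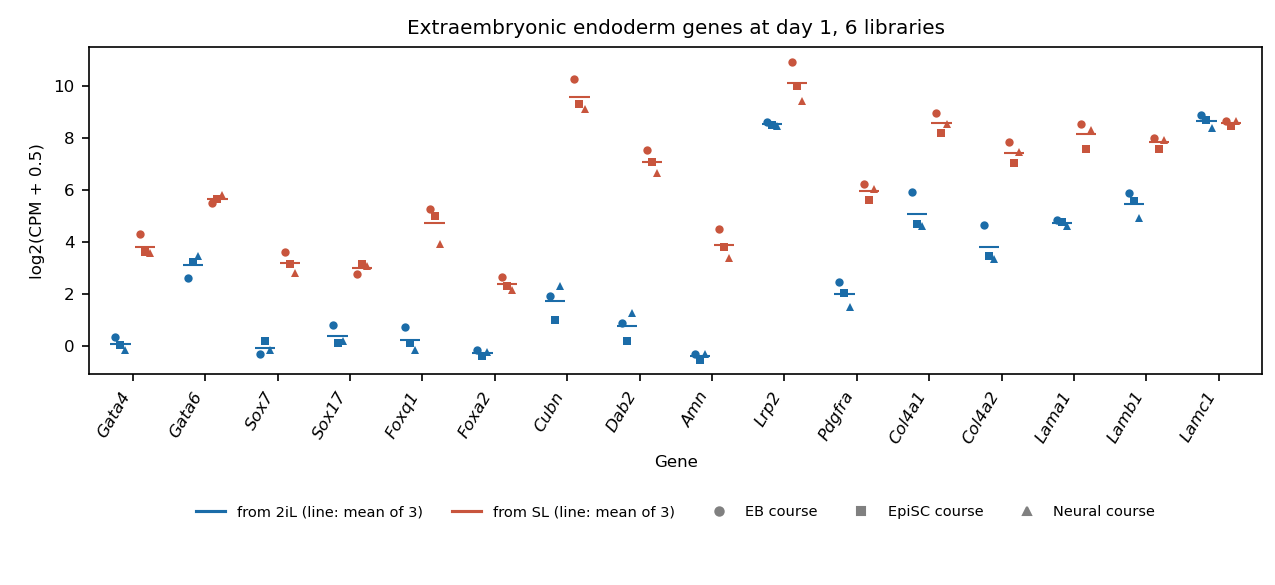
Levels of 16 extraembryonic endoderm genes in the 6 libraries of day 1. The vertical axis is log2 of CPM plus 0.5, colours give the medium of origin, symbols the course, and lines the mean of 3 libraries. All libraries from 2iL lie below all libraries from SL for each gene except Lamc1.

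The transcription factors of this lineage were among the called members. Gata4, which with Gata6 specifies primitive endoderm, was at 0.762, 0.508 and 0.387 CPM from 2iL and 18.9, 11.6 and 11.2 CPM from SL, with a log2 fold change of -4.67 ± 0.19 (SE; adjusted p = 2.2e-06). Gata6 was at 5.57, 8.82 and 10.5 CPM from 2iL and 44.7, 49.5 and 54.8 CPM from SL (-2.65 ± 0.13, adjusted p = 1.1e-05). For both factors every library from 2iL lay below every library from SL, as for 17.5% of all genes tested. Sox17, needed for endoderm to mature, was at 1.22, 0.571 and 0.629 CPM from 2iL against 6.24, 8.21 and 7.80 CPM from SL (-3.14 ± 0.31, adjusted p = 0.00028). Its relative Sox7 fell by 4.43 ± 0.30 on the same scale (adjusted p = 3.6e-05). The forkhead factor Foxq1 fell by 5.28 ± 0.17 (adjusted p = 8.5e-07).

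Visceral endoderm takes up nutrients through endocytic receptors. Cubn (cubilin), 1 of these and the list member with the largest difference, was at 3.26, 1.46 and 4.36 CPM from 2iL and at 1229, 632 and 544 CPM from SL. Thus each library from 2iL lay far below each library from SL (-8.04 ± 0.54, adjusted p = 0.0093). Without the EB course Cubn was not called, with a difference of -7.62 (adjusted p = 0.074). Amn, the membrane partner of cubilin, was at 0.305, 0.190 and 0.290 CPM from 2iL and 22.2, 13.2 and 9.75 CPM from SL (-5.85 ± 0.25, adjusted p = 2.4e-06). Dab2, an endocytic adaptor, was at 1.34, 0.635 and 1.89 CPM against 183, 132 and 99.2 CPM (-6.74 ± 0.35, adjusted p = 0.0015). Lrp2 (megalin), which works with cubilin, was at 388, 358 and 352 CPM from 2iL and 1945, 1016 and 679.8 CPM from SL. Its groups did not overlap, but its difference varied between courses and it was not called (-1.62 ± 0.36, adjusted p = 0.077, or 0.025 without the block). The secreted carrier Ttr had 1 read in the 3 libraries from 2iL together and 221 from SL, a ratio of 298 with an exact 95% counting interval from 52.9 to 11824. Intervals of this kind cover counting error only.

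The genes of the basement membrane, which endoderm secretes in quantity, were divided, with 4 members far lower from 2iL and 2 not called. Col4a1 was at 59.2, 25.3 and 23.9 CPM from 2iL and 491, 292 and 372 CPM from SL (-3.52 ± 0.21, adjusted p = 0.0011), and Col4a2, the other chain of collagen IV, differed by -3.66 ± 0.23 (adjusted p = 0.0014). Among the chains of laminin 111, Lama1 was at 27.9, 26.6 and 23.8 CPM against 372, 188 and 311 CPM (-3.46 ± 0.25, adjusted p = 0.0028), and Lamb1 at 57.7, 46.3 and 30.0 CPM against 254, 189 and 238 CPM (-2.40 ± 0.24, adjusted p = 0.0075). Without the EB course Lamb1 was not called, with a difference of -2.53 (adjusted p = 0.11). The gamma chain Lamc1 had overlapping groups, at 472, 412 and 332 CPM from 2iL and 405, 348 and 395 CPM from SL (0.05 ± 0.10, adjusted p = 0.77), and so did the laminin-binding nidogen Nid1 (0.23 ± 0.10, adjusted p = 0.12). The growth factor receptor Pdgfra, a marker of primitive endoderm, was at 4.93, 3.62 and 2.28 CPM from 2iL and 73.2, 48.6 and 65.2 CPM from SL (-4.14 ± 0.21, adjusted p = 0.00011). All 10 markers of primitive endoderm were called lower, with and without the block, and 9 of them without the EB course. Their summed level was 105, 68.4 and 68.5 CPM from 2iL and 2452, 1385 and 1481 CPM from SL. The part of endoderm-like cells in the differences of other genes was not tested.

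To show the DNA upstream of these genes, the 250 bases before the RefSeq start are given for the 4 called members with the largest falls that have an entry, which are Cubn, Dab2, Amn and Pdgfra. The sequences are from RefSeq on GRCm38.p6, written 5′ to 3′ on the strand of the gene, and capitals mark GATAA, the core recognised by GATA factors. For Dab2, which has 2 starts in the table, the start with a match is shown.
Cubn, chr2:13491877-13492126, minus strand: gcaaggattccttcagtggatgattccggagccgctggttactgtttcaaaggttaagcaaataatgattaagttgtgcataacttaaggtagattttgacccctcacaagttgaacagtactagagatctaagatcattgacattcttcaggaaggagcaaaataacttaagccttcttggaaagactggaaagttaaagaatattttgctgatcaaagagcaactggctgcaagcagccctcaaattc
Dab2, chr15:6299539-6299788, plus strand: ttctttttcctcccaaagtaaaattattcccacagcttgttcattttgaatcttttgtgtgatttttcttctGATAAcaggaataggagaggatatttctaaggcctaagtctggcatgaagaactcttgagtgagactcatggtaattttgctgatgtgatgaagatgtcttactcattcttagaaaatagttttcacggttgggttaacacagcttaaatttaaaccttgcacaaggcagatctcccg
Amn, chr12:111270846-111271095, plus strand: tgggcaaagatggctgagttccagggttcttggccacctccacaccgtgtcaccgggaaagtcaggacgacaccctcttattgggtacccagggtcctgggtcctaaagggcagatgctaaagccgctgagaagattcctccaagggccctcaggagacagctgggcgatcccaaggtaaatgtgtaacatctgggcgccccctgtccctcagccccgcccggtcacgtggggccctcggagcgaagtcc
Pdgfra, chr5:75152001-75152250, plus strand: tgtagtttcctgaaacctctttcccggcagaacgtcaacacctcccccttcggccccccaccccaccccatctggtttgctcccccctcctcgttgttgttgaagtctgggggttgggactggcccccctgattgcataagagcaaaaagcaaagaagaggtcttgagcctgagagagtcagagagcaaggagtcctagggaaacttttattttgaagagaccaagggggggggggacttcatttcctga
On either strand, GATAA occurred in 5 of the 25 upstream windows of the 14 called members with an entry (20%), and in 22.6% of all 32851 windows of this length. ATTGT, a SOX core, was in 12% of the member windows and in 27.7% of all windows, and the forkhead core TGTTTAC in none and 3.17%. In Dab2 the capitals lie 178 to 174 bases before the start. A match is a description of letters and not of binding.

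The largest falls of the whole comparison included other genes beside those of the list. Tfec, a factor of the Mitf family, had 0 reads in the 3 libraries from 2iL and 400 from SL, where it was at 12.0, 6.57 and 5.13 CPM. Set against a floor of 3 counts over the libraries from 2iL, it was at least 179.8-fold lower. The chloride channel protein Clic6 was at 0.183, 0.190 and 0.290 CPM from 2iL and 38.8, 24.2 and 18.6 CPM from SL (-7.02 ± 0.25, adjusted p = 1.5e-06), and the lysosomal protease Ctsh at 0.152, 0.190 and 0.145 CPM against 20.1, 14.4 and 11.6 CPM (-6.62 ± 0.24, adjusted p = 1.3e-06). Pga5, Tcf23, Habp2 and Fam151a complete the 10 largest falls. They had 12, 3, 2 and 1 reads in the libraries from 2iL together, and 1152, 238, 398 and 151 reads from SL. For the last 3 of these the ratios of pooled reads were 107 (36.2 to 522), 268 (73.8 to 2224) and 204 (36 to 8096).

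Genes of the 2-cell-like state, which are active in the cleavage-stage embryo and in rare ESCs, were also lower from 2iL in every library. Of 26 symbols 23 were in the files, all 23 were tested, and 16 were lower, none was higher and 7 were not called. The list summed to 235, 42.8 and 74.4 CPM from 2iL and 1214, 2027 and 1815 CPM from SL. For each of the 23 genes all libraries from 2iL lay below all from SL, as for 17.5% of all genes tested. Without the block all 23 were called, against 15.9% of all genes tested in either direction. Without the Neural course 11 were called, and without EpiSC 15. Duxf3, which belongs to the Dux family of master regulators of this state, was at 0.244, 0.317 and 0.0484 CPM from 2iL and 3.92, 5.69 and 3.85 CPM from SL (-4.43 ± 0.37, adjusted p = 8.3e-05). The zinc finger gene Zfp352 was at 1.10, 0.127 and 0.145 CPM against 5.63, 5.92 and 7.25 CPM (-3.69 ± 0.66, adjusted p = 0.019). It lost the call with no filter and without EpiSC (adjusted p = 0.065 and 0.06). Tcstv1 and Tcstv3, named for the 2-cell stage, fell by 3.24 ± 0.50 and 3.5 ± 0.58. The largest difference of the list was that of the deubiquitinase gene Usp17le (1.22, 0.254 and 0.532 CPM against 16.0, 27.4 and 22.0 CPM, -4.81 ± 0.54, adjusted p = 0.0089), followed by Pramef25 (-4.54 ± 0.39). Usp17le was not called without the Neural course (adjusted p = 0.091). The Zscan4 genes, which act at telomeres, carried most of the reads. Zscan4f was at 63.4, 13.3 and 18.8 CPM from 2iL and 306, 503 and 444 CPM from SL. Here the EB library from 2iL stood above the other 2, the SE was large (-4.0 ± 0.96), and the gene was not called (adjusted p = 0.11, or 0.012 without the block). These families have near-identical copies, so reads may be shared between copies and the values of single members are uncertain.

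**Figure D2:**
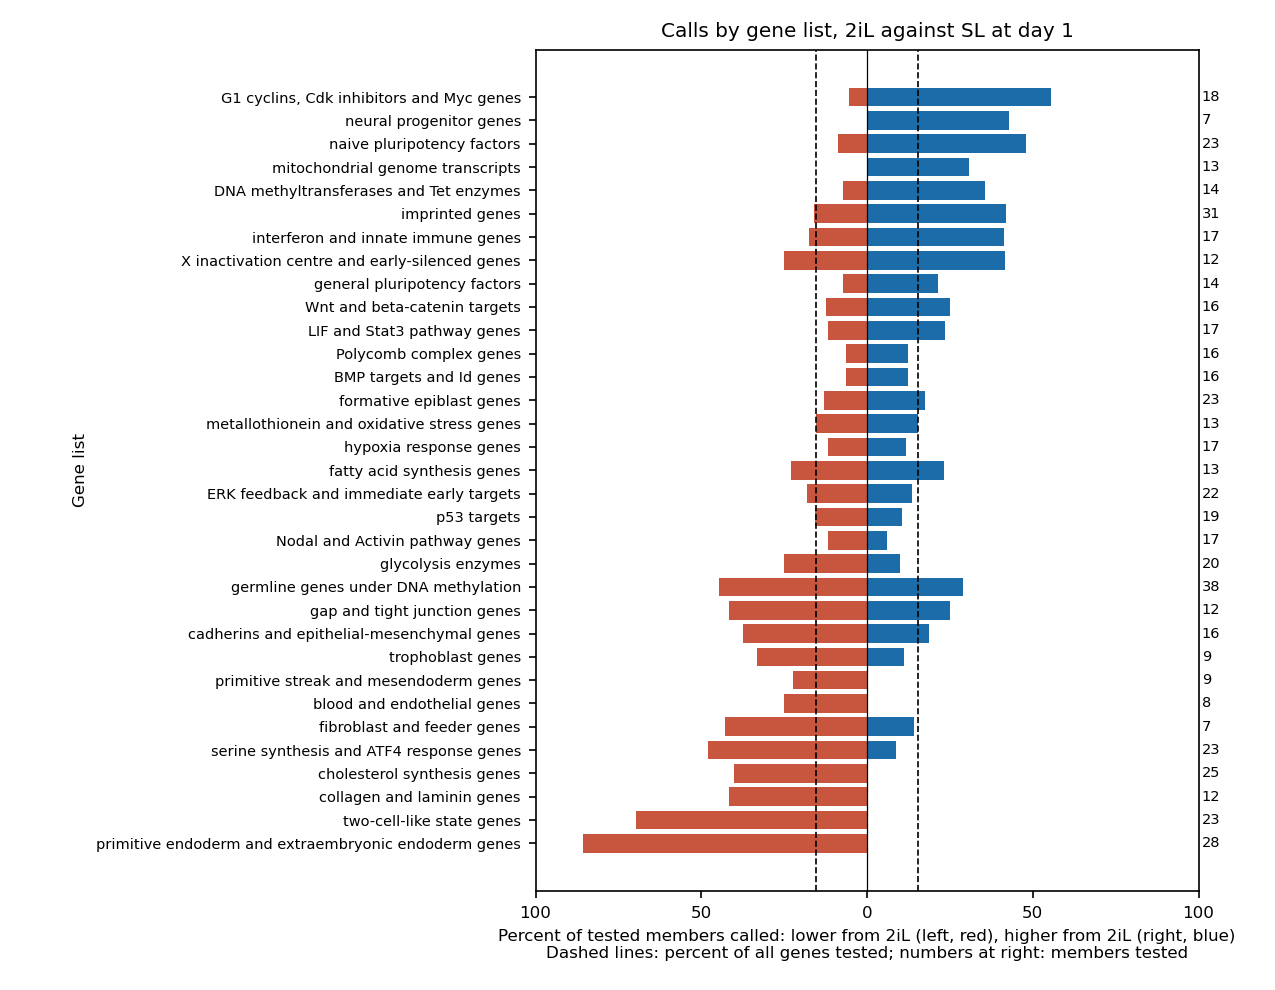
Share of the tested members of each gene list called higher from 2iL (right) or lower (left), with the number tested at the right edge. Dashed lines mark the share over all genes tested, 15.3% in each direction. The endoderm and 2-cell-like lists reach furthest to the left.

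Naive pluripotency factors differed far less in size, and mostly in the other direction. All 23 genes of this list were tested, and 11 were higher from 2iL, 2 were lower and 10 were not called, with a median of 0.27. Without the block 5 were higher and none lower, and with the spread of all days none was called in either direction. Nr0b1 (Dax1), a nuclear receptor of the naive network, moved most, from 78.1, 56.0 and 58.6 CPM in SL origin to 222, 143 and 179 CPM in 2iL origin (1.46 ± 0.07, adjusted p = 6.0e-06). Esrrb, a nuclear receptor that sustains self-renewal, was at 243, 316 and 318 CPM from 2iL and 182, 173 and 193 CPM from SL (0.64 ± 0.09, adjusted p = 0.0014). Zfp42 (Rex1), the usual marker of the naive state, was at 313, 334 and 400.1 CPM against 230.2, 221 and 256 CPM (0.54 ± 0.07, adjusted p = 0.00066). For these 3 genes every library from 2iL lay above every library from SL, as for 19.8% of all genes tested. Nanog was at 170.3, 249 and 254 CPM from 2iL and 140.3, 192 and 181 CPM from SL. Although it was higher from 2iL in each of the 3 courses, its groups overlapped (0.36 ± 0.07, adjusted p = 0.0053, or 0.23 without the block). Tfcp2l1, a LIF target, was similar, with a difference of 0.41 ± 0.11 (adjusted p = 0.026, or 0.17 without the block). Spp1, Dppa3 and the lysosomal gene Manba differed by 1.10 ± 0.19, 1.09 ± 0.35 and 0.99 ± 0.08. Dppa3 was called in 3 of 9 alternatives and lost the call without the block (adjusted p = 0.1) and with DESeq2 (adjusted p = 0.14), and its difference ran from 0.74 without EB to 1.60 without Neural. Spp1 was called in 5 of the 9. Tbx3 was 1 of the 2 members that were lower, at 19.4, 55.2 and 53.3 CPM against 41.9, 75.1 and 65.8 CPM (-0.63 ± 0.16, adjusted p = 0.039, or 0.43 without the block).

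Klf2, Klf4 and Prdm14, other factors of the naive network, did not pass the test. Klf4 was at 14.04, 18.8 and 19.7 CPM from 2iL and 14.01, 14.8 and 19.5 CPM from SL (0.09 ± 0.11, adjusted p = 0.57), Klf2 differed by -0.30 ± 0.23 (adjusted p = 0.38) and Prdm14 by 0.07 ± 0.15 (adjusted p = 0.74). At day 0 Prdm14 had been at 48.9 to 56.4 CPM in 2iL and 12.8 CPM in the single SL library, so its libraries were closer at day 1 than before differentiation. Among the factors shared by naive and primed cells, Pou5f1 (Oct4) was at 686, 617 and 688 CPM and 646, 647 and 602 CPM (0.05 ± 0.07, adjusted p = 0.66). Of 14 general pluripotency factors, 3 were higher and 1 was lower, 28.6% against 30.6% of all genes tested. Sox2 rose by 0.29 ± 0.07 (adjusted p = 0.019, or 0.18 without the block) and Dppa4 by 0.25 ± 0.07 (adjusted p = 0.019, or 0.21 without the block). L1td1, an RNA-binding protein of ESCs, had the largest rise, at 877, 811 and 676 CPM against 417, 479.9 and 399 CPM (0.84 ± 0.08, adjusted p = 0.00016). The lower gene was Lin28a, which blocks maturation of the let-7 microRNAs (268, 193 and 275 CPM from 2iL, 368, 392 and 403 CPM from SL, -0.70 ± 0.11, adjusted p = 0.0049).

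**Figure D3:**
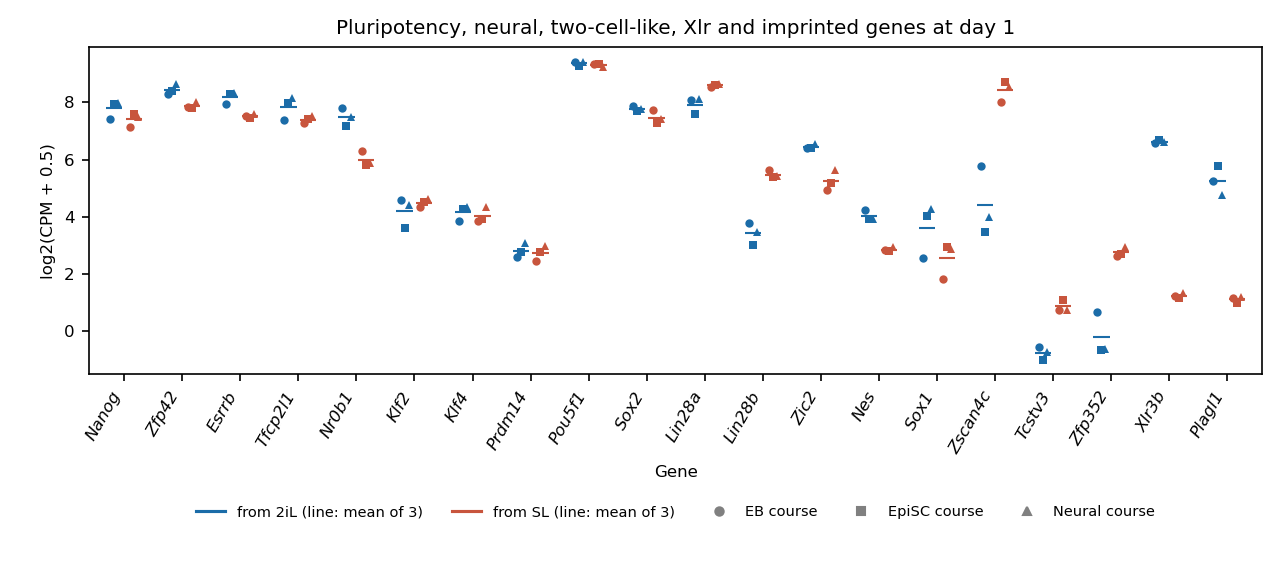
Levels of 20 genes of pluripotency, neural fate, the 2-cell-like state, the Xlr family and imprinting in the 6 libraries of day 1, as log2 of CPM plus 0.5, with colours for the medium of origin, symbols for the course and lines for the mean of 3. The libraries of both origins overlap or lie close together for most pluripotency factors, whereas Xlr3b and Plagl1 are far higher from 2iL and Zscan4c, Tcstv3 and Zfp352 far lower.

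The genes of the formative epiblast, which rise on leaving the naive state, were called no more often than all genes. Of 23 tested, 4 were higher from 2iL, 3 were lower and 16 were not called, a share of 30.4% against the background of 30.6%. Lin28b, the paralog of Lin28a, had the largest difference, at 13.1, 7.62 and 10.4 CPM from 2iL and 48.6, 40.9 and 42.1 CPM from SL (-2.12 ± 0.12, adjusted p = 1.1e-05). The zinc finger genes Zic2 and Zic5 went the other way. Zic2 was at 83.8, 84.4 and 92.1 CPM against 29.8, 36.1 and 48.9 CPM (1.18 ± 0.11, adjusted p = 0.00032), and Zic5 rose by 0.87 ± 0.07. The cadherin Cdh2 fell by 0.65 ± 0.13 (adjusted p = 0.0065, or 0.1 without the block). Among the de novo DNA methyltransferases, Dnmt3b had overlapping groups, and its difference depended on the course, with 1027, 320.4 and 371 CPM from 2iL and 1011, 467 and 413 CPM from SL (-0.25 ± 0.11, adjusted p = 0.13). Dnmt3a was lower in every library from 2iL and was not called (-0.60 ± 0.19, adjusted p = 0.096). Their cofactor Dnmt3l, at 799.8, 448 and 423 CPM from 2iL against 490.4, 379.6 and 339 CPM from SL, was called higher (0.40 ± 0.10, adjusted p = 0.017, or 0.34 without the block). At day 0 in 2iL Dnmt3l had been at 3.92 to 10.9 CPM, and in SL at 285 CPM.

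Genes of neural progenitors lay on both sides, and in the main test those called were higher from 2iL. Of 15 genes 7 were tested, 3 were higher and none was lower. The median over the 7 was 0.04, with 4 positive and 3 negative differences, down to -0.845. Groups did not overlap for 1 higher member and 1 lower one, against 19.8% and 17.5% of all genes tested. Without the EB course 3 members were called higher and 2 lower. Nes, an intermediate filament of neural progenitors, was at 18.4, 14.6 and 14.6 CPM from 2iL and 6.55, 6.51 and 7.08 CPM from SL (1.21 ± 0.14, adjusted p = 0.00035). For the transcription factors Sox1 (1.14 ± 0.16) and Pax6 (0.70 ± 0.12) the groups overlapped, both were lower in the EB course than in the others, and neither was called without the block (adjusted p = 0.19 and 0.41). Most genes of the primitive streak were too low to test, 11 of 20. Of the 9 tested, 2 were lower and none was higher (22.2% called). These were Foxa2, which endoderm shares (-3.83 ± 0.28, adjusted p = 4.4e-05), and Lhx1, with 1 read from 2iL and 84 from SL, a ratio of 113 (19.8 to 4527). Eomes, a T-box factor of the streak, was at 17.7, 11.7 and 7.503 CPM and 15.5, 14.5 and 8.92 CPM (-0.13 ± 0.14, adjusted p = 0.5). Of 15 trophoblast genes 9 were tested, 3 were lower and 1 was higher. The lower genes were the keratins Krt8 (5.79, 6.03 and 4.21 CPM against 34.8, 26.3 and 25.2 CPM, -2.46 ± 0.13) and Krt18 (-2.19 ± 0.17), which endoderm also expresses, and Tfap2c (-1.77 ± 0.19), which was not called without the block (adjusted p = 0.18). The higher was Gata3 (1.41 ± 0.31), which lost the call with DESeq2, without EpiSC, without Neural and with the spread of all days (adjusted p up to 0.17). In the blood and endothelial list, 2 of 8 tested genes were lower and none was higher, 25% against 30.6% of all genes tested. Its differences were positive for 4 genes and negative for 4. Runx1, a factor of blood formation, was at 0.396, 0.127 and 0.0968 CPM from 2iL and 10.8, 7.504 and 7.97 CPM from SL (-5.30 ± 0.30, adjusted p = 1.2e-05). For Kdr (13.1, 6.98 and 3.53 CPM against 2.45, 5.51 and 4.24 CPM) and Pecam1 (45.1, 136 and 108 CPM against 52.1, 103 and 111 CPM) the groups overlapped.

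The signals that differ between the maintenance media were followed through their target genes. Of 22 tested ERK feedback and immediate early genes, 3 were higher from 2iL and 4 were lower, 31.8% against 30.6% of all genes tested. With the spread of all days none of the list was called. Dusp6, a phosphatase that is a standard readout of ERK activity, was at 147, 109 and 94.6 CPM from 2iL and 123, 130.1 and 106 CPM from SL at day 1 (-0.08 ± 0.10, adjusted p = 0.62), after 7.45 to 13.1 CPM in 2iL and 98.9 CPM in SL at day 0. Spry4, an inhibitor of the same pathway, was at 122, 79.8 and 91.5 CPM against 217, 149 and 129 CPM at day 1 and was called lower (-0.77 ± 0.09, adjusted p = 0.00049, or 0.076 without the block), after 1.66 to 2.48 CPM and 119 CPM at day 0. The ETS factor Etv4 rose by 0.68 ± 0.07 and the receptor Epha2 fell by 0.63 ± 0.07.

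Of 16 tested Wnt and beta-catenin targets, 4 were higher and 2 were lower, 37.5% against 30.6% of all genes tested. Notum, a secreted Wnt inhibitor, was at 47.2, 48.1 and 46.7 CPM from 2iL and 10.6, 11.8 and 9.31 CPM from SL (2.14 ± 0.10, adjusted p = 3.9e-06). The cyclin gene Ccnd1 (122, 109 and 95.4 CPM against 59.6, 54.9 and 58.4 CPM, 0.89 ± 0.08) and the Wnt inhibitor Apcdd1 (0.96 ± 0.18) were also higher. Axin2, a general feedback target of the pathway, was lower from 2iL at day 1, at 31.8, 20.4 and 19.07 CPM against 34.3, 30.7 and 27.7 CPM (-0.43 ± 0.11, adjusted p = 0.022, or 0.25 without the block), although at day 0 it had been at 62.9 to 82.04 CPM in 2iL and 15.1 CPM in SL. Dkk1, an inhibitor of Wnt receptors, was at 0.305, 0.381 and 0.0968 CPM from 2iL and 22.1, 17.4 and 9.09 CPM from SL (-6.02 ± 0.23, adjusted p = 1.5e-06), the largest difference of this list. Lef1, a partner of beta-catenin, split by course, with 121, 25.1 and 26.7 CPM from 2iL and 85.5, 75.9 and 68.7 CPM from SL, and was not called (-0.80 ± 0.65, adjusted p = 0.47).

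In the LIF and Stat3 pathway, 4 of 17 tested genes were higher and 2 were lower, 35.3% against 30.6% of all genes tested. The receptor Lifr (0.49 ± 0.09) and the kinase Jak1 (0.34 ± 0.07, adjusted p = 0.074 without the block) rose, and the feedback inhibitor Socs3 fell by 0.90 ± 0.17 (adjusted p = 0.0051, or 0.074 without the block). Among 16 tested BMP genes, the inhibitor Smad6 (1.16 ± 0.17) and the target Id3 (0.60 ± 0.16, adjusted p = 0.5 without the block) were higher, and the ligand Bmp2, which endoderm secretes, was lower (-3.14 ± 0.47, adjusted p = 0.0015). The share of BMP genes called was 18.8%, under that of all genes tested. Of 17 tested Nodal and Activin genes 1 was higher, the transducer Smad3 (0.63 ± 0.13), and 2 were lower, among them Smad4 (-0.30 ± 0.07), fewer than the background of 30.6% gives.

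Of the 10 largest rises, 9 lay on the X chromosome. Of the 152 genes higher from 2iL by more than 2 on the log2 scale, 32 (21.1%) were X-linked, while the X carries 552 (3.92%) of the genes tested. The median difference over all X-linked genes was 0.02, and the autosomes lay between -0.053 and 0.051. On the Y, 5 of 9 tested genes were higher and 0 were lower, with a median of 0.30. The Y medians of single courses were 0.57 in EB, 0.39 in EpiSC and 0.65 in Neural. On chromosome X of GRCm38, between positions 73074345 and 73292976, 11 of 12 tested genes were higher by more than 2. They include all 9 genes of the Xlr3, Xlr4 and Xlr5 families, which encode proteins related to the synaptonemal complex protein Sycp3. The interval was drawn around these 9 genes after their values were seen, so their share of the 11 was fixed by that choice. Xlr3b was at 95.7, 102 and 96.6 CPM from 2iL and 1.84, 1.70 and 2.01 CPM from SL, nearly alike in the 3 courses (5.70 ± 0.11, adjusted p = 2.8e-08). Xlr4a was at 19.6, 20.9 and 17.5 CPM against 0.367, 0.176 and 0.167 CPM (6.31 ± 0.23, adjusted p = 1.3e-06). Xlr5b, at 15.1, 21.4 and 15.7 CPM from 2iL, had 5 reads in the 3 libraries from SL together (7.37 ± 0.25, adjusted p = 9.5e-07). DXBay18, in the same interval, had 285 reads from 2iL and 1 from SL, a ratio of 211 with an exact 95% interval of 37.6 to 8376. The summed level of the 9 Xlr genes was 379.7, 445 and 396 CPM against 5.75, 6.04 and 7.19 CPM. Their copies are near-identical and their annotations overlap, so the level of each copy is uncertain. All 9 were called without the block, with the spread of all days and with each course left out.

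Beyond this interval, 2 other X-linked families were examined. All 4 tested Magea genes were higher, with Magea5 at 3.05, 3.17 and 1.55 CPM from 2iL and 2 reads in all from SL, a ratio of 67.5 (18.4 to 561). Of 10 tested Rhox homeobox genes 6 were higher, none was lower and 4 were not called, and Rhox2a was at 2.80, 3.17 and 3.63 CPM against 0, 0.0586 and 0.446 CPM (4.20 ± 0.57, adjusted p = 0.0019). The Magea and Rhox counts were taken after their values had been seen. Outside the X, the lectin gene Mgl2 was among the 10 largest rises, with 3.11, 4.76 and 4.60 CPM from 2iL and 2 reads in all from SL, a ratio of 101 (27.7 to 837).

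Of 12 tested genes in a list of the X inactivation centre and other X-linked genes, 5 were higher and 3 were lower. Xist, the RNA that coats the inactive X, was at 2.04, 1.40 and 1.65 CPM from 2iL and 4.65, 2.05 and 1.67 CPM from SL, and the groups overlapped (-0.68 ± 0.28, adjusted p = 0.1). It had 123 reads from 2iL and 141 from SL, and no alternative called it. Tsix, its antisense repressor, was higher, with 11.1, 9.90 and 8.81 CPM against 6.36, 5.39 and 4.57 CPM (0.85 ± 0.14, adjusted p = 0.0027). Counting was strand-specific, which keeps Xist and Tsix reads apart. Ftx, a non-coding activator of Xist, was lower in all 3 courses, at 3.47, 1.84 and 2.66 CPM from 2iL and 9.79, 5.92 and 7.52 CPM from SL (-1.57 ± 0.17, adjusted p = 0.00032). Rlim (Rnf12), the ubiquitin ligase that activates Xist, was at 266, 245 and 217 CPM against 401, 331 and 294 CPM (-0.51 ± 0.07, adjusted p = 0.00073). Jpx, another non-coding activator, had 10 reads from 2iL and 19 from SL and was not tested, and Tsx was not called (0.47 ± 0.22, adjusted p = 0.13). Among the X-linked protein-coding genes of the list, C77370 (Nexmif) was at 311, 174 and 153 CPM from 2iL and 125, 65.0 and 69.8 CPM from SL (1.26 ± 0.08, adjusted p = 1.6e-05, or 0.064 without the block). Huwe1, which the paper describes as silenced late, was lower, at 867, 749 and 736 CPM against 1225, 982 and 872 CPM (-0.40 ± 0.07, adjusted p = 0.0032, or 0.087 without the block). Chic1 (0.74 ± 0.09) was higher. The homeobox gene Cdx4 was called higher (1.19 ± 0.35, adjusted p = 0.03), but in 3 of 9 alternatives alone, with an adjusted p of 0.24 without the block. Without the block, 2 genes of this list were higher and 2 were lower.

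Germline genes whose promoters are methylated in somatic cells were called in both directions. Of 38 tested, 11 were higher from 2iL and 17 were lower. Among the lower genes, 3 form the synaptonemal complex. Sycp1 fell by 2.19 ± 0.50, Sycp2 was at 0.518, 0.825 and 0.678 CPM against 3.12, 4.22 and 5.46 CPM (-2.68 ± 0.26, adjusted p = 0.00018) and Sycp3 at 1.43, 4.19 and 2.81 CPM against 13.8, 16.9 and 15.0 CPM (-2.57 ± 0.24, adjusted p = 0.00035). Sycp1 lost the call with no filter, without EpiSC and without Neural (adjusted p = 0.064, 0.058 and 0.14). Tdrd5, of the piRNA pathway, fell by 2.98 ± 0.31 and the germline ADP/ATP carrier Slc25a31 by 2.36 ± 0.27. Among the higher genes, besides Rhox2a, was the testis tubulin Tuba3b (8.38, 20.8 and 25.8 CPM against 2.02, 3.75 and 4.29 CPM, 2.38 ± 0.15, adjusted p = 2.2e-05).

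Of 31 tested imprinted genes, 13 were higher and 5 were lower (9 and 4 without the block). The zinc finger gene Plagl1 (Zac1), expressed from the paternal allele, was at 37.3, 54.8 and 26.5 CPM from 2iL and 1.71, 1.47 and 1.78 CPM from SL (4.50 ± 0.23, adjusted p = 5.2e-05). At day 0 it had been at 274 to 403 CPM in 2iL and 0.844 CPM in SL. Nap1l5 (1.98, 3.55 and 1.84 CPM against 0.184, 0.117 and 0.111 CPM, 4.06 ± 0.42) and Usp29 (1.29 ± 0.20), both also paternal, were higher. The growth factor Igf2 was lower, at 1.86, 0.444 and 0.871 CPM against 13.6, 15.1 and 17.5 CPM (-3.81 ± 0.40, adjusted p = 0.0025), and so were the maternally expressed Phlda2 (-2.42 ± 0.32) and the Cdk inhibitor Cdkn1c (20.9, 11.8 and 12.1 CPM against 57.1, 83.4 and 40.0 CPM, -1.99 ± 0.34, adjusted p = 0.032). Cdkn1c lost the call with no filter, without EB and without Neural (adjusted p = 0.099, 0.082 and 0.15). The counts do not separate alleles. Of 14 DNA methyltransferase, Tet and cofactor genes 5 were higher and 1 was lower, and without the block 2 were higher and none was lower. The imprint guardian Zfp57 rose by 0.53 ± 0.07, Tet3 by 0.51 ± 0.13 (adjusted p = 0.08 without the block), and the maintenance factor Uhrf1 by 0.33 ± 0.07.

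Genes of G1 progression were called higher from 2iL in 10 of 18 cases, with Cdkn1c the single lower member and 7 not called. Ccnd3 was at 172, 160.3 and 185 CPM from 2iL and 90.4, 86.8 and 90.9 CPM from SL (0.92 ± 0.07, adjusted p = 4.4e-05), Ccnd2 rose by 1.0 ± 0.13 and the kinase Cdk6 by 0.98 ± 0.11. The inhibitors Cdkn2a (1.07 ± 0.19) and Cdkn2c (1.34 ± 0.32) were called higher too, so the list holds genes of opposite action. Without the block 4 of the list were higher and 1 was lower, and Ccnd2, Cdkn2a and Cdkn2c lost the call (adjusted p = 0.21, 0.059 and 0.09). Cdkn1c was not called without EB or without Neural (adjusted p = 0.082 and 0.15), so that no member was lower there. Cholesterol synthesis genes showed small falls, 10 lower and none higher of 25, led among the enzymes by Lss (60.9, 106 and 130.0 CPM against 88.3, 167 and 182 CPM, -0.58 ± 0.07, adjusted p = 0.00044) and Hsd17b7 (-0.51 ± 0.09). The list summed to 2059, 3225 and 3509.9 CPM from 2iL and 1994, 3812 and 3969 CPM from SL, lowest in both origins in the EB course. Without the block none of the 25 was called. Of 23 genes of serine synthesis and the ATF4 response 11 were lower and 2 were higher, with Atf3 at 0.305, 0.635 and 0.194 CPM against 3.18, 4.05 and 1.78 CPM (-3.07 ± 0.32, adjusted p = 0.00025), the lipoprotein receptor Vldlr lower by 2.31 ± 0.56 (adjusted p = 0.03) and the proline enzyme Aldh18a1 at 16.2, 32.7 and 33.5 CPM against 47.9, 60.2 and 60.03 CPM (-1.11 ± 0.15, adjusted p = 0.0031). Without the block 3 of this list were lower and none was higher, and Vldlr was not called (adjusted p = 0.13). Of 20 glycolysis enzymes 5 were lower, among them Pgk1 (-0.71 ± 0.09) and Pkm (-0.57 ± 0.13), and 2 were higher, among them Eno3 (1.28 ± 0.12). Together 35% of the glycolysis list was called, against 30.6% of all genes tested. Without the block 1 was lower and 1 higher, and Pgk1 and Pkm lost the call (adjusted p = 0.28 and 0.32). Of 13 tested transcripts of the mitochondrial genome 4 were higher and none was lower, 30.8% against 30.6% of all genes tested. Without the block 1 of them was called higher. The transcript mt-Cytb was at 1735, 1708 and 1250.2 CPM against 734, 1173 and 869.6 CPM (0.74 ± 0.17, adjusted p = 0.035, or 0.052 without the block). The median over the 13 was 0.999 in the EB course, 0.455 in EpiSC and 0.163 in Neural, largest in EB.

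Interferon and innate immune genes were called in both directions, with 7 higher and 3 lower of 17 tested, and 3 and 2 without the block. Ifitm3, a membrane protein that is also high in early embryonic cells, was at 51.5, 47.4 and 56.3 CPM from 2iL and 11.3, 8.21 and 9.14 CPM from SL (2.42 ± 0.11, adjusted p = 3.9e-06), and Ifitm1 rose by 1.44 ± 0.16. B2m, the light chain of MHC class I, was lower, at 3.59, 2.60 and 2.57 CPM against 15.5, 11.8 and 12.4 CPM (-2.20 ± 0.15, adjusted p = 2.8e-05), as was Sp110 (-3.19 ± 0.33), which the 2-cell-like list also holds. In gap and tight junctions, 5 of 12 genes were lower, among them the claudins Cldn7 (-3.15 ± 0.33) and Cldn6 (-2.63 ± 0.32, adjusted p = 0.09 without the block), and 3 were higher, among them Cldn3 (2.28 ± 0.31). The cadherin and epithelial-mesenchymal list had 6 lower and 3 higher of 16 (3 lower and none higher without the block), and of 12 tested collagen and laminin genes 5 were lower and none was higher. The remaining lists are given by their counts, to be read against the 15.3% of all genes tested that were called in each direction. Of 13 fatty acid synthesis genes 3 were higher and 3 lower, of 17 tested hypoxia genes 2 and 2, of 19 tested p53 targets 2 and 3, of 13 metallothionein and oxidative stress genes 2 and 2, of 16 Polycomb genes 2 and 1, and of 7 tested fibroblast and feeder genes 1 and 3. Without the block no gene of the fibroblast and fatty acid lists was called.

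Among the called genes with the most reads, the differences were small. Of those that were higher, mt-Co3, mt-Atp6, mt-Co2 and Eif4a1 had log2 fold changes of 0.36, 0.57, 0.56 and 0.31. The 5 that were lower are Pkm, Gm10116, Prdx1, Huwe1 and Cltc, at -0.57, -0.50, -0.26, -0.40 and -0.47. Several of these calls depended on the setting. Without the block mt-Co3 and mt-Atp6 lost the call (edgeR adjusted p = 0.078 and 0.053). Without EpiSC mt-Co3, Eif4a1 and Prdx1 lost it (adjusted p = 0.13, 0.055 and 0.091), whereas Cltc kept it in all 9 alternatives. Singled out after their values were seen, the zinc finger genes Rex2 (3028, 2305 and 2582 CPM against 1246, 1174 and 1155 CPM, 1.11 ± 0.08) and Zfp600 (1.18 ± 0.07) were higher in all 3 courses. They have near-identical copies such as Gm13242, so their values are uncertain.

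The day 1 differences were then followed through the time courses, with no test and with log2 differences of CPM plus 0.5 averaged over the courses. The genes followed were chosen by their day 1 difference, so day 1 itself gives 100% by choice. That choice also favours larger medians at day 1 than at other days, by an amount that was not tested. Over all genes tested, the difference was positive for 50.6% (day 5) to 53.2% (day 1). At day 0, 80.3% of the 4298 called genes had the sign of day 1, although all differences of day 0 share the single SL library. By day 1.5 the share was 96%, and it then fell to 88.9% (day 2), 80.1% (day 2.5) and 76.3% (day 3). The last days gave 64.4% (day 5, which rests on 2 courses) and 61.2% (day 7). The median of the genes higher at day 1 went from 0.556 at day 1 to 0.307 at day 2 and 0.0468 at day 7, and that of the lower genes from -0.723 to -0.437 and -0.0697. Across the genes tested, the correlation with the day 1 difference went from 0.906 at day 1.5 to 0.343 at day 7. Genes differed in how long the gap lasted. Cubn from 2iL was at 59.6 to 190.3 CPM at day 2 and 136 to 276 CPM at day 3, against 643 to 1492 and 419 to 1355 CPM from SL, and at day 7 the origins overlapped (64.9 to 1479 and 41.9 to 1709 CPM). Xlr3b was still at 14.5 to 88.0 CPM from 2iL and 0.650 to 2.75 CPM from SL at day 7, with the lowest value in the EB course. Zscan4f from SL was at 87.7 to 688 CPM at day 2 and 6.83 to 31.2 CPM at day 7, when it overlapped the range from 2iL.

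**Figure D4:**
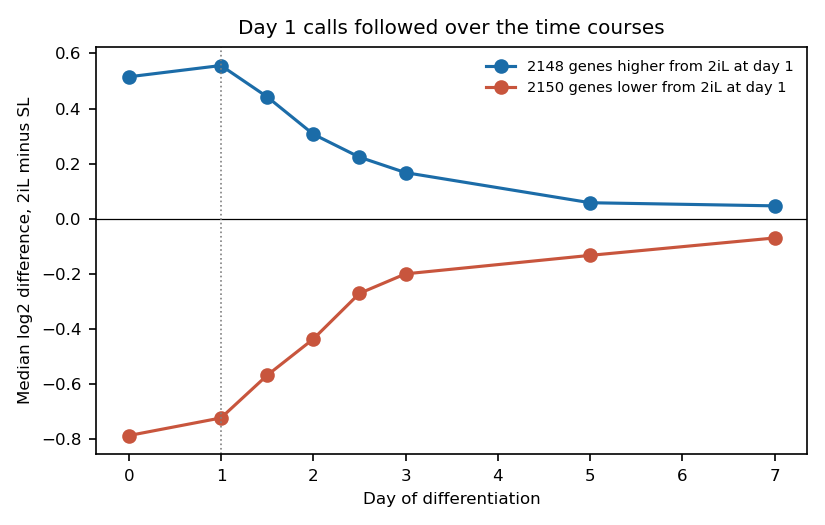
Median log2 difference, 2iL minus SL, of the genes called at day 1, by day of differentiation from day 0 to day 7. Blue is the median over the 2148 genes higher from 2iL at day 1, red that over the 2150 lower genes, and the dotted line marks day 1. Both lines approach 0, from 0.556 and -0.723 at day 1 to 0.0468 and -0.0697 at day 7. The genes were chosen at day 1, which favours larger medians there.

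**Figure D5:**
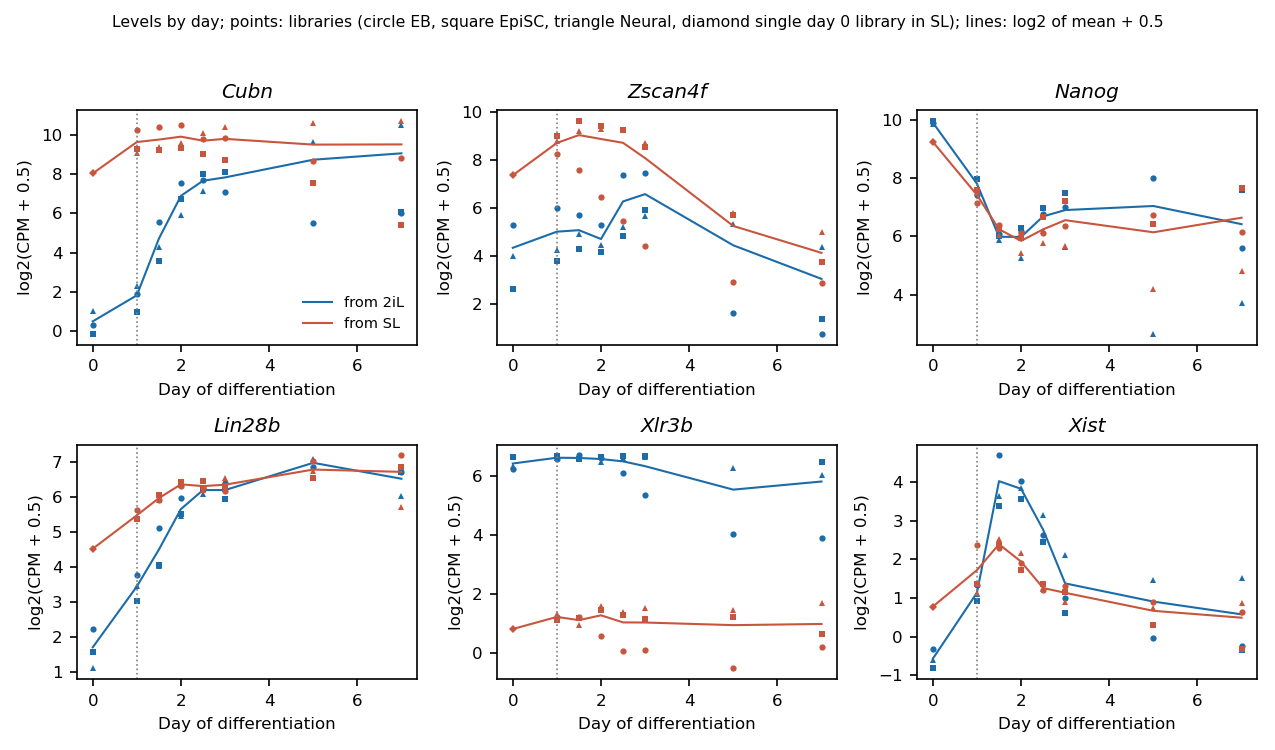
Levels of 6 genes by day of differentiation, as log2 of CPM plus 0.5. Points are libraries (circle EB, square EpiSC, triangle Neural, diamond the single SL library of day 0), lines the log2 of the mean plus 0.5, and the dotted line marks day 1. Cubn and Lin28b from 2iL approach the level from SL by day 3, Xlr3b stays apart, and Xist from 2iL is above SL at day 2.

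To test which differences had changed by day 2, the 12 libraries of both days were fitted with a block for each time course. Of 14792 genes tested, 80 (0.541%) changed, 50 (0.338%) towards higher and 30 towards lower in 2iL origin, and 2062 had an unadjusted p under 0.05. Of the 80, 68 had been called at day 1, and both tests share the libraries of day 1. The count rests on the choice of courses, being 945 without EB, 0 without EpiSC and 2 without Neural. The endoderm genes Cubn (a change of 4.92 ± 0.57, adjusted p = 0.04), Dab2 (3.86 ± 0.50, 0.047) and Gata4 (2.55 ± 0.34, 0.034) had a smaller difference at day 2, as did Lin28b (1.37 ± 0.16, 0.023) and Dkk1 (4.02 ± 0.44, 0.023). Xist, not called at day 1, changed by 2.67 ± 0.43 (adjusted p = 0.047), from 2.04, 1.40 and 1.65 CPM at day 1 to 11.2 to 15.7 CPM at day 2 from 2iL, against 2.79 to 3.97 CPM from SL at day 2. None of the 9 Xlr genes passed this test (Xlr3b -0.03 ± 0.27, adjusted p = 0.97).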

How the data were processed

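RNA of the 45 libraries was depleted of ribosomal RNA and sequenced strand-specifically. The deposited values are raw read counts per gene and library, which the authors obtained with TopHat2 on GRCm38 (mm10) and strand-specific featureCounts. DESeq2 is named in the submitters' processing notes, but the deposited counts are not normalized. The counts of the 6 libraries of day 1 were tested with edgeR 4.0.16 (quasi-likelihood, TMM factors, filterByExpr by origin with a minimum count of 10, course as block, two-sided, threshold 0.05) in R 4.3.3, and the interaction with day on 12 libraries. CPM values use TMM factors over all 45 libraries, and differences of single courses and days use log2 of CPM plus 0.5. DESeq2 1.42.0, RLE factors, no filter, thinning to the smallest library, no block, leaving out each course and a spread taken over all libraries from day 1 on were alternatives. Nothing in the labels says that libraries came from cultures separate beyond origin and course, so p-values measure the spread between these samples.

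Members of a course, which the titles pair, deviated together from the mean of their origin with r = 0.58 (EB), 0.246 (EpiSC) and 0.513 (Neural), so that the course was kept as block. Between courses r ran from -0.556 to 0.227, the highest being 2iL EpiSC with SL Neural, close to the value within EpiSC. Between courses of the same origin no libraries of day 1 were copies, since chi-square per gene was 18.65 or more. Other pairs of libraries were not compared in this way. The comparison, the 33 gene lists and the rules were chosen with earlier results of these data known, and no list was tested as a set. The genes named are the 10 largest called changes in each direction (mean of at least 2 CPM in the higher origin, predicted genes left out), up to 6 called and 3 uncalled members per list, genes named in the study, and the 5 called genes with the most reads in each direction. Further members of the lists, the Xlr, Magea, Rhox and Rex2 genes and the genes of the closing section were singled out after their values were seen. For genes with 0 reads in an origin the floor was 3 counts over its libraries, and ratios of 1 to 3 reads carry an exact 95% interval. Differences at day 5 use the EB and Neural courses. A few genes that meet these rules are not reported here. The code was tested on simulated data.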

Additional observations from a re-analysis of the deposited data

Results flagged for a closer look

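The origin difference itself differed between day 1 and day 2 for the following genes, by the interaction of origin and day in edgeR's quasi-likelihood fit of 12 libraries (adjusted p under 0.05). Each value is the log2 difference of 2iL against SL at day 2 minus that at day 1. Endoderm genes that were lower from 2iL at day 1 had a smaller difference at day 2, with changes of 4.92 for Cubn, 3.86 for Dab2, 2.96 for Foxq1, 2.55 for Gata4, 2.44 for Sox7 and 1.69 for Lamb1. The same held for Tfec (7.56, a fitted value that depends on the prior count, since all libraries from 2iL had 0 reads at day 1), Lin28b (1.37), Lhx1 (4.48), Dkk1 (4.02), the meiotic gene Sycp1 (2.24), Slc25a31 (1.95) and Atxn1l (1.37). Xist changed by 2.67.

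Among the genes higher from 2iL at day 1, the gap had narrowed or turned for Cdk6 (-1.10), the homeobox gene Crxos (-2.31), the adaptor She (-2.08), the kinase gene Brsk2 (-1.85) and Ddah1 (-1.98). It had widened for Rex2 (0.81), Zfp600 (0.86), Gm13242 (0.77) and Hydin (1.46). Tead4, a transcription factor of the Hippo pathway that was not called at day 1, changed by -1.49. The number of genes called by this test was 80 with all courses, 945 without EB, 0 without EpiSC and 2 without Neural.

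For 4 genes all 3 pairs were higher from 2iL at day 1 and lower at day 2, while the interaction missed the threshold. They are Tfcp2l1 (-0.89, adjusted p = 0.071), Klf4 (-0.72, adjusted p = 0.079), Ccnd1 (-1.77, adjusted p = 0.085) and Smad3 (-0.88, adjusted p = 0.14) in the same edgeR fit. No other test of this turn was made. Klf4 differed little at day 1, where edgeR did not call it (0.09, adjusted p = 0.57). Without the EpiSC course its day 1 difference was -0.01.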

How the results depend on the processing

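The number of genes called at day 1 (4298, of which 2148 were higher and 2150 lower) was 2235 with no replicate block (1015 higher, 1220 lower) and 2307 with the spread taken over all libraries from day 1 on (1058 higher, 1249 lower), and leaving out 1 course gave 2502 to 4347 (1238 to 2105 higher, 1264 to 2242 lower). It was lowest without Neural and highest without EB. DESeq2 called 3322, RLE factors 4287, no filter 4805 and thinned libraries 3869. The change from day 1 to day 2 (80 genes) gave 115 with the course alone as block, 137 with no filter, 336 with DESeq2, and from 0 to 945 when 1 course was left out. With a course left out, the share of day 1 calls with the same sign ranged from 73.5% to 74.5% at day 3, 60.7% to 64.4% at day 5 and 55.4% to 61.4% at day 7. In the day 1 test, leaving out a course leaves 1 residual degree of freedom. The cause of these shifts was not tested.

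Over 157 named genes and 9 alternatives, 1253 of 1412 comparisons kept direction and side of the threshold, 138 lost the call, 18 gained it and 3 turned sign, and 83 genes kept both throughout. With no replicate block 33 named genes lost the call and 3 gained it. The turns were in genes not called. With 1 course left out the log2 fold change ranged from -0.01 to 0.15 for Klf4, from -0.24 to 0.03 for Dusp6 and from -0.01 to 0.12 for Pou5f1. Depth limits genes near the floor of 0.0433 CPM from 2iL and 0.0584 CPM from SL.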

Other observations

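Some large differences lay outside the lists above and were singled out after their values were seen. Amot, an X-linked scaffold protein of the Hippo pathway, was at 7.04, 1.78 and 1.89 CPM from 2iL and 297, 179.8 and 74.0 CPM from SL (log2 fold change -5.69 ± 0.27, edgeR adjusted p = 0.00076), and at day 0 at 0.998 to 2.32 CPM in 2iL and 42.9 CPM in SL. Nxf7, an X-linked gene of the RNA export family, was at 0.701, 0.381 and 0.0484 CPM from 2iL and 30.9, 22.8 and 14.21 CPM from SL (-5.88 ± 0.27, adjusted p = 1.2e-05), so that large differences on the X chromosome ran in both directions. In the hypoxia list, both lower genes encode prolyl hydroxylases that modify collagen. P4ha2 was at 2.44, 2.03 and 1.40 CPM against 18.5, 15.2 and 17.3 CPM (-3.15 ± 0.18, adjusted p = 1.2e-05) and P4ha1 at 31.6, 15.9 and 13.7 CPM against 73.6, 44.1 and 51.7 CPM (-1.54 ± 0.13, adjusted p = 0.00027).

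Crxos, a homeobox gene, was still higher from 2iL at day 1, at 8.71, 16.0 and 11.5 CPM against 1.84, 2.40 and 3.57 CPM (2.18 ± 0.22, adjusted p = 0.00025), after 85.9 to 123 CPM in 2iL and 5.33 CPM in SL at day 0, and at day 2 the origins overlapped at 0.581 to 1.26 and 0.534 to 1.43 CPM. Rex2 went the other way. From 2iL it was at 2280.1 to 2442 CPM at day 2, against 534 to 658 CPM from SL, a wider gap than the 3028, 2305 and 2582 CPM against 1246, 1174 and 1155 CPM of day 1.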
